A study of Mus musculus with 64 samples.

Results

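The genes described here are 7 that are known from neurodegenerative disease: Sncb (beta-synuclein), App (the amyloid precursor protein), its homologues Aplp1 and Aplp2, Mapt (the microtubule-associated protein tau), and the secreted apolipoproteins Apoe (apolipoprotein E) and Clu (clusterin, also called apolipoprotein J). They were taken by name from the 23313 genes measured, and all 7 were found. Each was followed through 64 single cells to see which kinds of cell carried it. The cells came from the dentate gyrus, the hippocampal region in which new neurons form in the adult, of Dcx-dsRed mice aged 6 to 7 weeks. In these transgenic mice the promoter of Dcx (doublecortin), a microtubule-binding protein of immature neurons, drives dsRed, a red fluorescent protein. Dissociated DCX-dsRed+ cells were sorted by fluorescence, captured singly on a microfluidic circuit, amplified as polyadenylated RNA and sequenced. No second genotype, treatment or time was included, and no label tied a cell to an animal, so the 64 cells count as 1 sample with no replicate, and no test was possible between kinds of cell. Medians, ranges and ratios are descriptions of these libraries.

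Synucleins are small proteins of the presynaptic terminal, and Sncb is one of this family. App is a membrane protein that secretases cut into fragments, among them the amyloid beta peptide, whereas Aplp1 and Aplp2 share its overall build but lack the amyloid beta stretch. Tau binds and stabilises microtubules, above all in axons, and oligodendrocytes also make it. Astrocytes are the main source of Apoe, the principal lipid carrier of the brain, and they also secrete Clu, a chaperone and lipid carrier.

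Levels are TPM, the standard unit that divides reads by transcript length and by library total, so they can be compared between genes. The libraries held an estimated 442731 to 4004350 reads, with a median of 1052710, and 3535 to 7480 genes at 1 TPM or more. They fell into 21 deeper and 43 shallower libraries, with none between 1289680 and 1883120 reads. The cells were grouped without the 7 genes and without the related genes described below, and 3 clusters gave the highest silhouette, 0.261. By marker lists, they were 33 oligodendrocyte-like cells, 20 neuron-like cells and 11 astrocyte-like cells, of which 13, 7 and 1 were among the deeper libraries. The summed level of 10 oligodendrocyte markers was 17784 to 132427 TPM in oligodendrocyte-like cells. That of 10 pan-neuronal markers was 2968 to 10845 TPM in neuron-like cells. For 10 stem cell or astrocyte markers it was 2098 to 38029 TPM in astrocyte-like cells. The astrocyte-like class is named after this joint list, called astrocyte markers below, so stem cells and astrocytes are not told apart in it. The labels call every cell an immature neuron, and the marker levels of the oligodendrocyte-like and astrocyte-like cells go against that label. Dcx itself was at 1 TPM or more in 24 of 64 cells (11 oligodendrocyte-like, 6 neuron-like and 7 astrocyte-like), with a median of 0.405 TPM. In 13 libraries the mean log2(TPM + 1) of another class's markers reached the 25th percentile of that class, and these are called here libraries with a second programme: 7 oligodendrocyte-like cells with neuronal markers, 4 oligodendrocyte-like cells with astrocyte markers and 2 neuron-like cells with astrocyte markers. The summed levels are another measure: of the 22 oligodendrocyte-like cells without a second programme, 6 had a pan-neuronal and 10 an astrocyte marker sum inside the ranges just given. Of the 18 neuron-like cells without a second programme, 8 had an astrocyte marker sum inside its range. Of the 11 astrocyte-like cells, 1 had a pan-neuronal marker sum inside its range. In both of these groups 0 cells had an oligodendrocyte marker sum inside its range. Of 10 microglia or macrophage markers, 8 were at 0 in all 64 cells, among them Csf1r, Cx3cr1, Aif1 and C1qa.

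App, Aplp1 and Mapt were highest in the oligodendrocyte-like cells, Apoe and Clu in the astrocyte-like cells, and Sncb in the neuron-like cells, where it was nevertheless low. Aplp2 was the most evenly spread of the 7 and was present in 64 of 64 cells. The differences of mean log2(TPM + 1) between the highest class and the other cells were 4.12 for Apoe, 3.21 for App, 3.01 for Clu, 2.76 for Aplp1, 2.08 for Mapt, 1.77 for Sncb and 0.83 for Aplp2. The neuron-like cells, the class closest to the sort label, were therefore highest for 1 of the 7 genes.

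**Figure D1:**
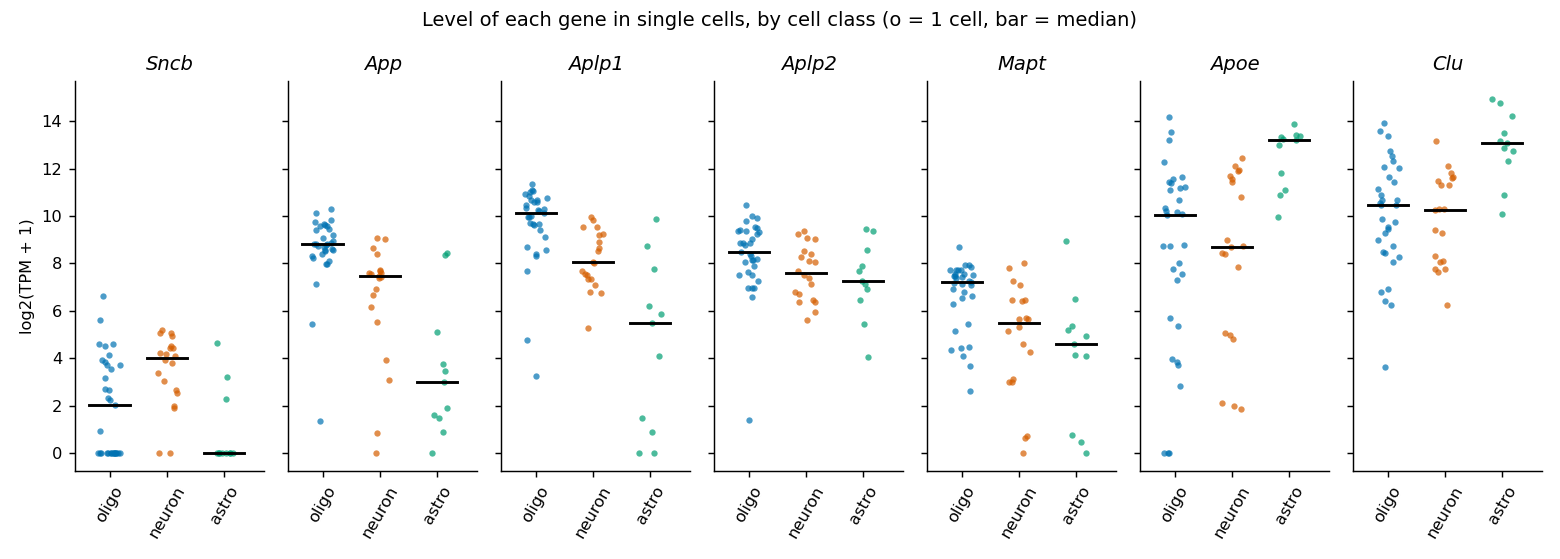
Level of each of the 7 genes, as log2(TPM + 1) on the y axis, in single cells grouped on the x axis as oligodendrocyte-like (oligo, 33 cells), neuron-like (neuron, 20 cells) and astrocyte-like (astro, 11 cells). Points are cells and bars are medians; App and Aplp1 are highest in oligodendrocyte-like cells, and every astrocyte-like cell has Apoe at 991 TPM or more.

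To set these differences against the rest of the transcriptome, the ratio of mean TPM between a class and the other cells was taken for all 10732 genes at 1 TPM or more in at least 10% of cells, and a gene was called higher or lower at a ratio of 2 or more, or of 0.5 or less. Such ratios were common: 18.0% of all genes were called higher and 24.7% lower in oligodendrocyte-like cells, 21.5% higher and 24.2% lower in neuron-like cells, and 20.0% higher and 37.8% lower in astrocyte-like cells. Of the 7 genes, 3 were called higher in oligodendrocyte-like cells (App, Aplp1 and Mapt) and 1 lower (Clu). In neuron-like cells none was called higher and 4 were called lower (App, Aplp1, Apoe and Clu). The App ratio there was 0.459, with 0.470 within the deeper and 0.454 within the shallower libraries, but the other calls ended in 1 depth class. Aplp1 had 0.427, with 0.309 in the deeper and 0.514 in the shallower libraries. Apoe had 0.436, with 0.737 in the deeper and 0.358 in the shallower libraries. Clu had 0.381, with 0.635 in the deeper and 0.324 in the shallower libraries. Mean Apoe in neuron-like cells was 1660.5 TPM in the deeper and 1484 TPM in the shallower libraries, and mean Clu 1843 and 1930 TPM. The cells they were compared with held 1 deeper and 10 shallower astrocyte-like libraries. In astrocyte-like cells 2 were called higher (Apoe and Clu) and 3 lower (Sncb, App and Aplp1). The median ratio over the 7 genes was 1.77 in oligodendrocyte-like, 0.459 in neuron-like and 0.600 in astrocyte-like cells, beside 0.831, 1.03 and 0.785 over all genes tested. Fewer transcripts per cell and a smaller share of a cell's RNA cannot be told apart in TPM.

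App lies on chromosome 16 of the mouse (GRCm38, chr16:84949685-85173766, minus strand). Its TPM had a lowest, median and highest value of 1.58, 446 and 1251 in the 33 oligodendrocyte-like cells, of 0, 174 and 536 in the 20 neuron-like cells, and of 0, 7.04 and 345 in the 11 astrocyte-like cells. The ranges overlapped, but 30 of the 33 oligodendrocyte-like cells lay above the neuron-like median and 2 of the 31 other cells lay above the oligodendrocyte-like median. Mean App was 509 TPM in oligodendrocyte-like cells, against 142 TPM in the other cells, a ratio of 3.59 that ranged from 3.43 to 3.96 when single libraries were left out. The ratio was 2.61 within the deeper and 4.197 within the shallower libraries. In astrocyte-like cells the ratio to the other cells was 0.174, and 0.102 without the astrocyte-like cell with 345 TPM. App was detected, at 1 TPM or more, in 60 of 64 cells (93.8%), and the 4 cells without it were 2 neuron-like and 2 astrocyte-like. App had a median of 1022 estimated reads in oligodendrocyte-like cells and 208 in neuron-like cells. These are reads of amplified RNA, and how precisely they measure the level in a cell was not tested.

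Aplp1, which is known mainly from neurons, lies on chromosome 7 (GRCm38, chr7:30434982-30445535, minus strand) and was the most abundant of the 3 family members. Its TPM was 8.65, 1104 and 2591 (lowest, median and highest) in oligodendrocyte-like cells, 38.4, 265 and 983 in neuron-like cells, and 0, 44.5 and 946 in astrocyte-like cells. None of the 31 other cells reached the oligodendrocyte-like median, and 20 of the 33 oligodendrocyte-like cells lay above every neuron-like cell. Mean Aplp1 was 1136 TPM in oligodendrocyte-like cells and 304 TPM in the other cells, a ratio of 3.74, with 3.98 within the deeper and 3.52 within the shallower libraries. In astrocyte-like cells the ratio was 0.191, and 0.0984 without cell 68, which had 946 TPM. It ranked 102nd among the genes of oligodendrocyte-like cells by mean TPM, and 510th in neuron-like cells. All 20 neuron-like cells nevertheless had it at 38.4 TPM or more, whereas 3 of the 11 astrocyte-like cells were under 1 TPM.

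Aplp2, the broadly made member of the family, lies on chromosome 9 (GRCm38, chr9:31149557-31211815, minus strand). Its TPM was 1.66, 354 and 1412 (lowest, median and highest) in oligodendrocyte-like cells, 48.8, 195 and 667 in neuron-like cells, and 15.7, 151 and 703 in astrocyte-like cells. The classes overlapped over most of their ranges, and the ratio of mean TPM in oligodendrocyte-like cells to the other cells, 1.77, did not reach the limit of 2.

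The make-up of the family differed by class. App, Aplp1 and Aplp2 made up a median of 26.6%, 52.6% and 18.99% of their summed TPM in oligodendrocyte-like cells, of 15.9%, 43.3% and 27.9% in neuron-like cells, and of 1.57%, 9.27% and 75.5% in astrocyte-like cells. Aplp1 was the highest of the 3 in 26 of 33 oligodendrocyte-like and 11 of 20 neuron-like cells, while Aplp2 was the highest in 7 of 11 astrocyte-like cells. The median of the summed level was 1968 TPM in oligodendrocyte-like, 771 TPM in neuron-like and 433 TPM in astrocyte-like cells. Single cells departed from the pattern: App made up 79.6% of the family in 1 astrocyte-like cell, and Aplp1 94.9% in another.

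**Figure D2:**
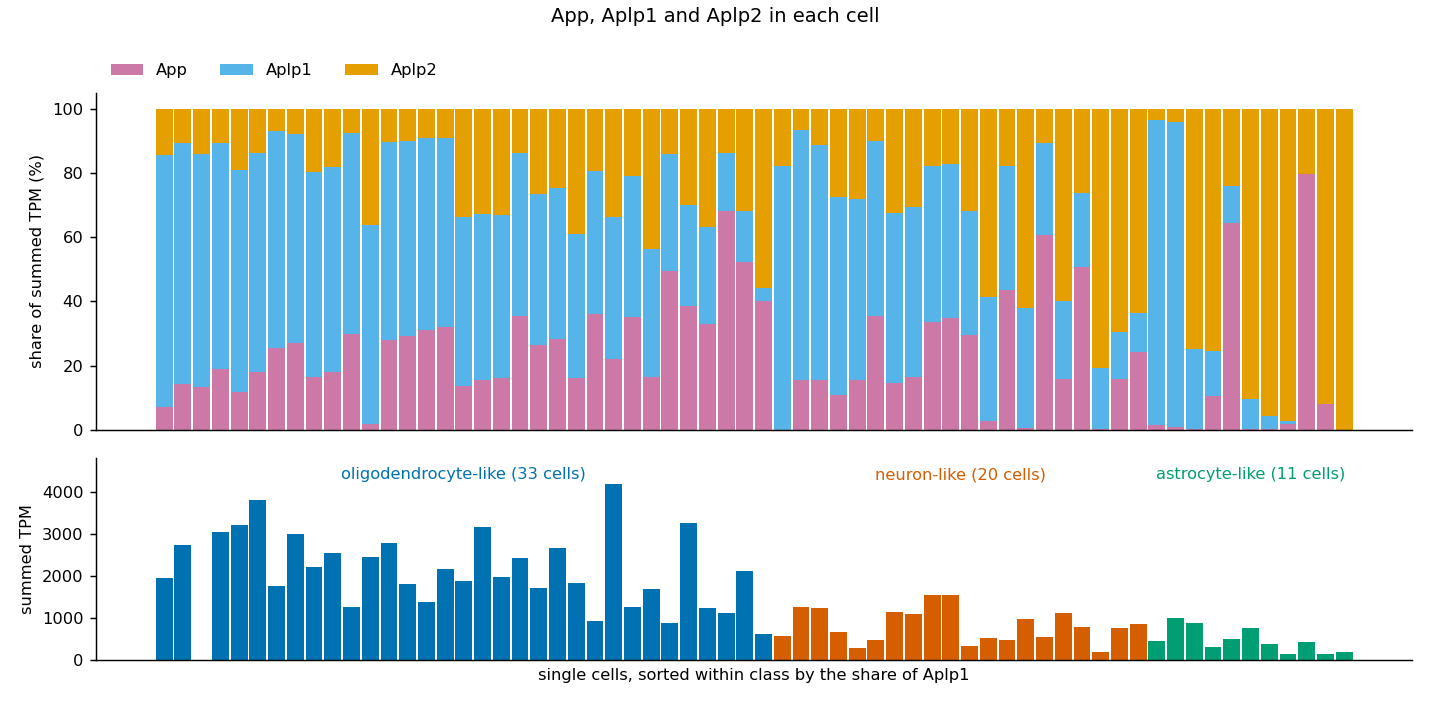
Upper panel, share of App, Aplp1 and Aplp2 in their summed TPM (y axis, percent) in each of 64 cells, and lower panel, the summed TPM itself, with cells along the x axis grouped by class and sorted by the share of Aplp1. The Aplp1 share is largest in most oligodendrocyte-like cells and the Aplp2 share in 7 of 11 astrocyte-like cells; the near-empty lower bar among the oligodendrocyte-like cells is the cell with a sum of 11.9 TPM.

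One oligodendrocyte-like cell, number 21 in the labels, had almost none of the family. It had App at 1.58 TPM, Aplp1 at 8.65 TPM and Aplp2 at 1.66 TPM, the lowest of its class for each, from 8.93, 34.1 and 9.87 estimated reads. Its library was among the deeper ones, at 3293520 estimated reads. Mapt was at 175 TPM in the same cell, above the class median. Apoe was at 9493 TPM and Clu at 6795 TPM, and its astrocyte marker sum was 19251 TPM beside an oligodendrocyte marker sum of 25193 TPM. It also had the fewest genes at 1 TPM or more of all cells, 3535. The part of these features in the low family level was not tested.

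The files list more than 1 transcript for App, Aplp2 and Mapt, and the alternative exons show what sets the transcripts apart. App and Aplp2 each have a 168-base exon that encodes a Kunitz protease inhibitor domain, and Aplp1 has none. They are shown because the transcript counts turn on them, as annotated by GENCODE M21 on GRCm38, 5′ to 3′ on the minus strand, with capitals for the bases that are the same in both (114 of 168, or 67.9%).
App Kunitz exon, chr16:85043576-85043743: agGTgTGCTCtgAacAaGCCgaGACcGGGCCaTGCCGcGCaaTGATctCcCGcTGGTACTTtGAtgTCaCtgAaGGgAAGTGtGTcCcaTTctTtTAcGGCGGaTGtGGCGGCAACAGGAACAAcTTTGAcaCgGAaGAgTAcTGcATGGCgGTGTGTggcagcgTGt
Aplp2 Kunitz exon, chr9:31167561-31167728: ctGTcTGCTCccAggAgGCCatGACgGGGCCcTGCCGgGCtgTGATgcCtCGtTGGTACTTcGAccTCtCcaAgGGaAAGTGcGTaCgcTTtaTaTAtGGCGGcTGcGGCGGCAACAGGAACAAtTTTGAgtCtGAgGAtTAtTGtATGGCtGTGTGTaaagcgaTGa
Aplp2 also has a 36-base exon, at another site on the minus strand. Of the transcripts listed none has both exons, and the 695-residue form has neither. The 36-base exon is given without capitals.
Aplp2 36-base exon, chr9:31156190-31156225: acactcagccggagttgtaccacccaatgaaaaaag

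App was made up almost wholly of the 695-residue form, which lacks the Kunitz exon and is known as the main form of neurons. It accounted for 98.6% of App TPM in oligodendrocyte-like cells, 87.9% in neuron-like cells and 99.1% in astrocyte-like cells. The neuron-like value rested on 1 library: cell 54 had 429 TPM of the 751-residue Kunitz form and 84.7% of its App in Kunitz forms, and without it the Kunitz forms made up 0.0960% of App in neuron-like cells, against 12.1% with it. Kunitz forms were at 1 TPM or more in 23 of 33 oligodendrocyte-like cells, 2 of 20 neuron-like cells and 1 of 11 astrocyte-like cells, but made up 1.37% of App in oligodendrocyte-like cells. App had a median of 1022 estimated reads in oligodendrocyte-like, 208 in neuron-like and 6.96 in astrocyte-like cells, so a rare form could be seen at a smaller share in oligodendrocyte-like cells. The oligodendrocyte-like cell 21, with 1.58 TPM of App in all, was the other cell with more than 50% of App in Kunitz forms.

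Aplp2 was split between its forms in all 3 classes. The 707-residue form with the 36-base exon made up 49.2% of Aplp2 TPM in oligodendrocyte-like, 41.9% in neuron-like and 65.4% in astrocyte-like cells. The 695-residue form with neither exon made up 40.04% in oligodendrocyte-like, 22.9% in neuron-like and 27.6% in astrocyte-like cells. The Kunitz form, of 751 residues, made up 10.8% in oligodendrocyte-like, 35.2% in neuron-like and 7.01% in astrocyte-like cells. It was detected in 14 of 33, 9 of 20 and 4 of 11 cells, and exceeded 50% of Aplp2 in 2 oligodendrocyte-like, 6 neuron-like and 0 astrocyte-like cells. The neuron-like share was 28.9% without the library with most of it, 27.97% within the deeper and 37.8% within the shallower libraries, and the oligodendrocyte-like share was 10.1% and 11.2% within the same depth classes. In single cells 1 form often stood alone: 24 of 64 cells had 1 form at 1 TPM or more, 33 had 2 and 7 had all 3. Transcript values from short reads are estimates, because most reads fall on exons that the forms share.

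**Figure D3:**
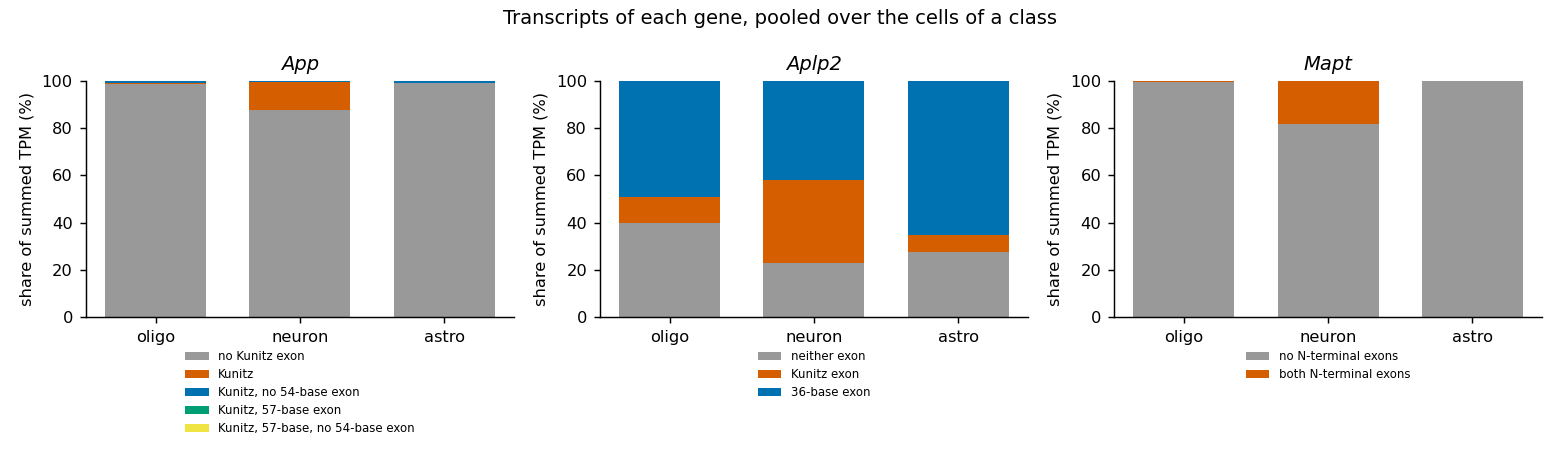
Share of the summed TPM of App, Aplp2 and Mapt (y axis, percent) taken by each transcript, pooled over the cells of a class (x axis: oligodendrocyte-like, neuron-like, astrocyte-like). App is nearly all without the Kunitz exon, the Kunitz form of Aplp2 is 35.2% in neuron-like cells, and most of the coloured part of the App bar in neuron-like cells comes from 1 cell.

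Mapt lies on chromosome 11 (GRCm38, chr11:104231390-104332090, plus strand). Its TPM was 5.21, 150 and 415 (lowest, median and highest) in oligodendrocyte-like cells, 0, 44.4 and 258 in neuron-like cells, and 0, 23.3 and 487 in astrocyte-like cells. Tau transcript was detected in all 33 oligodendrocyte-like cells, in 17 of 20 neuron-like cells and in 8 of 11 astrocyte-like cells. Of the oligodendrocyte-like cells 25 lay above the neuron-like median, but the highest value of all belonged to an astrocyte-like cell. Mean Mapt was 140 TPM in oligodendrocyte-like cells, against 66.3 TPM in the other cells, a ratio of 2.11. This ratio was just past the limit, was 1.98 without the oligodendrocyte-like cell with the highest value, and was 5.98 within the deeper but 1.77 within the shallower libraries. The astrocyte-like mean of 67.2 TPM rested on the cell with 487 TPM, and without it the ratio to the other cells was 0.225, against 0.600 with it. In neuron-like cells the ratio was 0.540, and leaving out cell 54 or cell 77 made it a lower call, at 0.457 and 0.472, as did keeping to the deeper libraries, at 0.177. The astrocyte-like cell with 487 TPM, number 68 in the labels, had a pan-neuronal marker sum of 4531 TPM. This was the highest of its class and inside the neuron-like range, and its astrocyte marker sum was 3298 TPM. The same cell had the highest Aplp1 (946 TPM) and Sncb (24.3 TPM) and the lowest Apoe (991 TPM) of its class.

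Tau differs in its N-terminal part by a pair of 87-base exons, shown here because they separate the coding parts of the transcripts listed for Mapt. They are on the plus strand and present together in the 430-residue form and absent from the 372-residue form.
Mapt first N-terminal exon, chr11:104287123-104287209: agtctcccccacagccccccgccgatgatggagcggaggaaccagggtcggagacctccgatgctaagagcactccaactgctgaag
Mapt second N-terminal exon, chr11:104289908-104289994: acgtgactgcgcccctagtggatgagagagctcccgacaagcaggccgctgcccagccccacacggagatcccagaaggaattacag
The 372-residue form made up 99.5% of Mapt TPM in oligodendrocyte-like cells, 81.9% in neuron-like cells and 100% in astrocyte-like cells. Its transcript is 5253 bases long, against 1362 bases for that of the 430-residue form. Reads on the sequence that only the longer transcript has count for the 372-residue form whatever the N-terminal exons. These shares therefore do not measure the use of the 87-base exons alone. The 430-residue form was detected in 2 of 33 oligodendrocyte-like cells, 4 of 20 neuron-like cells and 0 of 11 astrocyte-like cells. In neuron-like cells its share was 18.1%, and 12.2% without cell 54, the same cell that held most of the Kunitz form of App. That cell had 110 TPM of the 430-residue form among 258 TPM of Mapt.

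Sncb lies on chromosome 13 (GRCm38, chr13:54758860-54766595, minus strand) and was the scarcest of the 7 genes, with a median of 3.99 estimated reads per cell. Its TPM was 0, 15.2 and 36.1 (lowest, median and highest) in neuron-like cells, 0, 3.11 and 98.8 in oligodendrocyte-like cells, and 0, 0 and 24.3 in astrocyte-like cells. It was detected in 18 of 20 neuron-like cells, 17 of 33 oligodendrocyte-like cells and 3 of 11 astrocyte-like cells, with shares of 90.0%, 51.5% and 27.3% and exact Clopper-Pearson 95% intervals of 68.3 to 98.8%, 33.5 to 69.2% and 6.02 to 61.0%, which cover counting error only. A single read of Sncb was worth 0.464 to 4.78 TPM, so a cell at 0 may have held the transcript below this depth. Mean Sncb was 15.3 TPM in neuron-like cells, against 8.22 TPM in the other cells, a ratio of 1.86, which is under the limit. Without the oligodendrocyte-like cell with 98.8 TPM the ratio was 2.50, without the oligodendrocyte-like cell with 47.5 TPM it was 2.09, and without all 13 libraries with a second programme it was 2.80. In astrocyte-like cells the ratio was 0.279, and 0.103 without cell 68, which had 24.3 TPM.

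In the oligodendrocyte-like cells Sncb went with neuronal transcripts. Its rho with the pan-neuronal marker sum was 0.739 across the 33 cells, which share their class but differ in depth and in genes detected. The rho of Sncb was 0.668 with the number of genes detected and -0.067 with the estimated reads. Median Sncb was 14.2 TPM in the 7 oligodendrocyte-like cells with a neuronal second programme and 0.445 TPM in the 22 without a second programme. Between the same groups of cells, median App was 451 TPM in the 7 cells and 453 TPM in the 22, and median Mapt was 135 TPM in the 7 and 148 TPM in the 22. Aplp1 was lower in the 7 cells, at a median of 806 TPM, than in the 22, at 1167 TPM. Mapt showed no such tie to the neuronal markers among oligodendrocyte-like cells, with a rho of -0.16. The part of neuronal RNA from another source in these levels was not tested.

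Sncg (gamma-synuclein), another member of the family, was found in 1 of 64 cells, an oligodendrocyte-like cell with 3494 TPM.

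Apoe lies on chromosome 7 (GRCm38, chr7:19696109-19699188, minus strand). Its TPM was 991, 9417 and 14986 (lowest, median and highest) in astrocyte-like cells, 0, 1041 and 18462 in oligodendrocyte-like cells, and 2.6, 418 and 5534 in neuron-like cells. All 11 astrocyte-like cells lay above the neuron-like median, 7 lay above every neuron-like cell, and 3 of the 53 other cells lay above the astrocyte-like median. The cell with 18462 TPM was oligodendrocyte-like with an astrocyte second programme. Mean Apoe was 7528 TPM in astrocyte-like cells, against 1963 TPM in the other cells, a ratio of 3.84, and of 5.41 without the libraries with a second programme. In oligodendrocyte-like cells the ratio to the other cells was 0.604, and leaving out the cell with 18462 TPM made it a lower call, at 0.466. Apoe ranked 6th among all genes of the astrocyte-like cells by mean TPM.

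Clu lies on chromosome 14 (GRCm38, chr14:65968483-65981547, plus strand) and was above 11 TPM in every cell. Its TPM was 1073, 8707 and 31550 (lowest, median and highest) in astrocyte-like cells, 11.5, 1409 and 15749 in oligodendrocyte-like cells, and 75.6, 1228 and 9140 in neuron-like cells. Of the 11 astrocyte-like cells, 5 lay above every neuron-like cell, and 4 of the 53 other cells lay above the astrocyte-like median. Mean Clu was 11810 TPM in astrocyte-like cells, against 2400 TPM in the other cells, a ratio of 4.92, and of 7.10 without the libraries with a second programme. It ranked 2nd among the genes of the astrocyte-like cells. The call that Clu was lower in oligodendrocyte-like cells, at a ratio of 0.499, lay at the limit and ended when any 1 of 32 libraries was left out. The ratio was 1.21 within the deeper and 0.412 within the shallower libraries. Mean Clu in oligodendrocyte-like cells was 2730 TPM in the deeper and 2686 TPM in the shallower libraries. The cells they were compared with held 1 astrocyte-like library among the deeper and 10 among the shallower, so these 2 ratios compare unlike mixtures.

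Apoe and Clu varied together. Their rho was 0.821 across the 64 cells, 0.734 within oligodendrocyte-like, 0.723 within neuron-like and 0.564 within astrocyte-like cells. These cells share classes and library depths, and rho with the estimated reads was -0.14 for Apoe and -0.083 for Clu. Clu was the higher of the pair in most cells, and Apoe exceeded Clu in 20 of 64. Together they reached 10000 TPM or more in 13 cells, 8 of which were astrocyte-like, 4 oligodendrocyte-like and 1 neuron-like.

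Outside the astrocyte-like class both genes went with stem cell or astrocyte transcripts. The rho of Apoe with the summed stem cell or astrocyte markers was 0.807 in oligodendrocyte-like and 0.857 in neuron-like cells, and that of Clu was 0.814 and 0.765. Median Apoe was 7618 TPM in the 4 oligodendrocyte-like cells with an astrocyte second programme, against 1066 TPM in the 22 without a second programme, and median Clu was 9065 TPM against 902 TPM. The astrocyte marker sum itself ranged from 12.8 to 25678 TPM in oligodendrocyte-like and from 179 to 12985 TPM in neuron-like cells. All 20 neuron-like cells had Apoe at 2.6 TPM or more, and each of the 10 astrocyte markers was detected in at least 1 of them. The part of stem cell or astrocyte RNA in these levels was not tested.

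**Figure D4:**
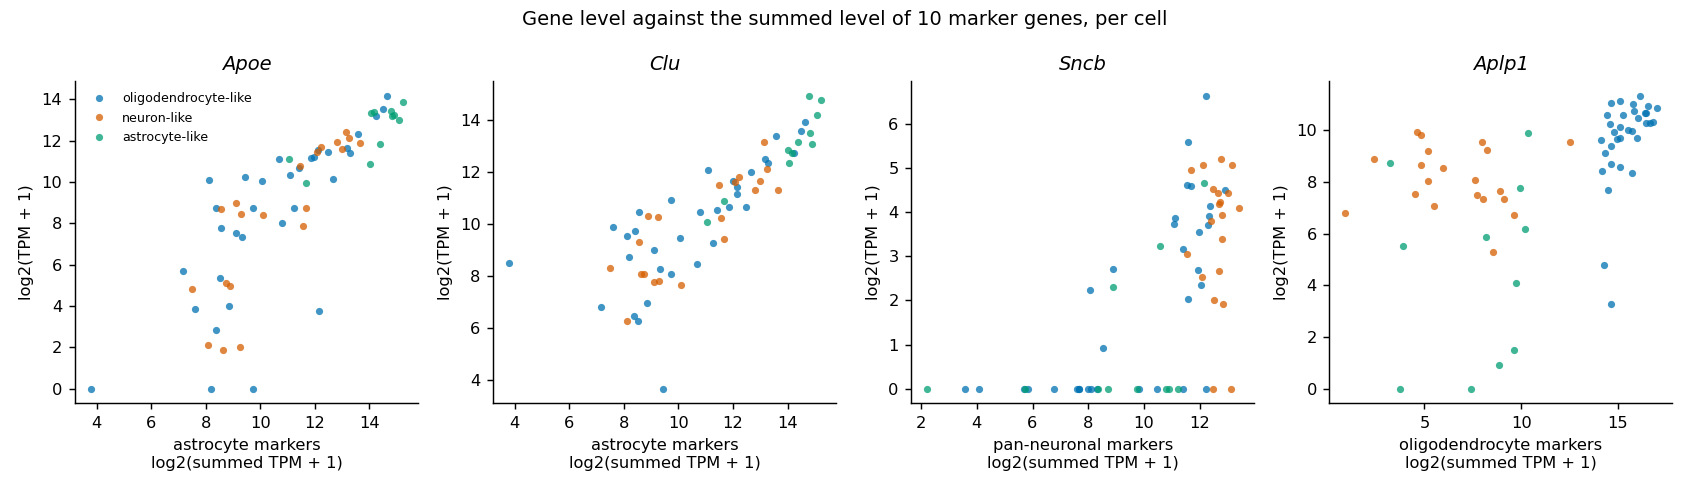
Level of Apoe, Clu, Sncb and Aplp1 in each of 64 cells (y axis, log2(TPM + 1)) against the summed level of 10 marker genes (x axis, log2(summed TPM + 1)): astrocyte markers for Apoe and Clu, pan-neuronal for Sncb and oligodendrocyte for Aplp1, with colours for the class. Apoe and Clu follow the astrocyte markers across all 3 classes (rho 0.880 and 0.881), whereas Aplp1 follows the oligodendrocyte markers within oligodendrocyte-like cells (rho 0.590) and not within neuron-like cells (rho -0.23).

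App and Aplp1 had a rho of 0.606 across all cells, and of 0.284 within oligodendrocyte-like, 0.2496 within neuron-like and 0.014 within astrocyte-like cells. Pearson's r of the same pair was 0.587 across all cells and 0.578 within oligodendrocyte-like cells. How the relation divides within and between classes thus depends on the measure. The oligodendrocyte-like values include cell 21, the lowest of its class for both genes (App 1.58 TPM, Aplp1 8.65 TPM). Pearson's r is sensitive to such a cell, and its part in the value was not tested. App had a rho of -0.41 and Aplp1 of -0.43 with Apoe across all cells. Within the 11 astrocyte-like cells App had a rho of -0.79 with the astrocyte marker sum, and Mapt of -0.61. Sncb had a rho between -0.20 and 0.035 with each of the other 6 genes.

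**Figure D5:**
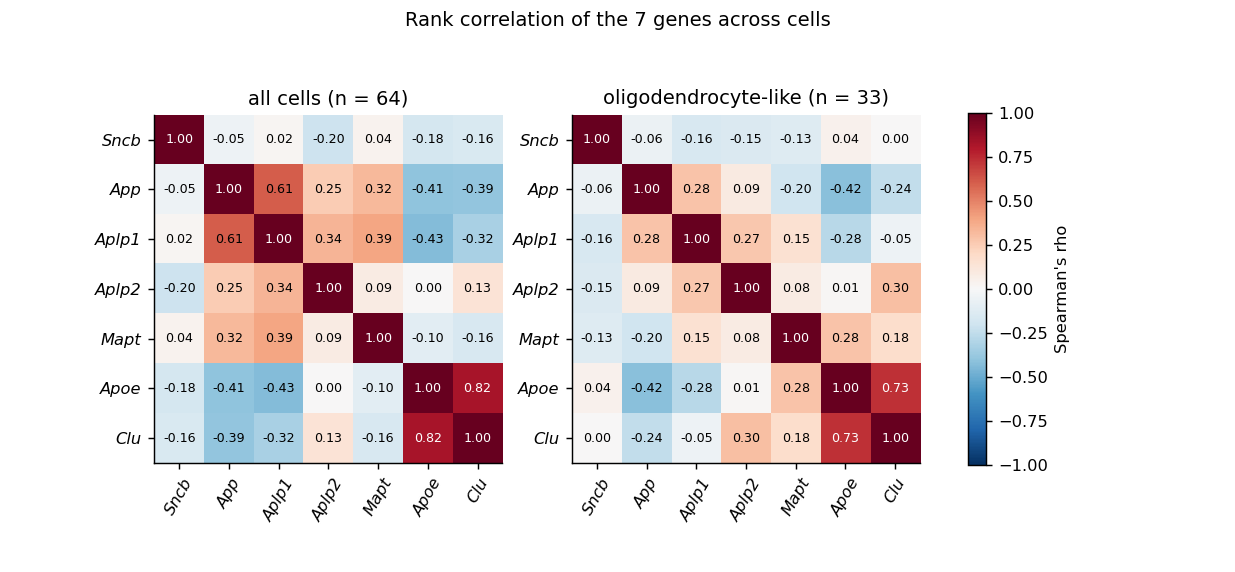
Spearman's rho between each pair of the 7 genes across all 64 cells (left) and across the 33 oligodendrocyte-like cells (right), printed in each square and coloured by its value. The Apoe and Clu pair is high in both (0.82 and 0.73), while App and Aplp1 have 0.61 across all cells and 0.28 within the class.

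The genes most like each member were ranked by rho over the 64 cells among 8045 genes at 1 TPM or more in at least 25% of cells. For Sncb they were Uchl1 (a neuronal ubiquitin hydrolase; rho 0.678), Scn2b (a sodium channel subunit), Bex2, Unc80 and Snap25 (a synaptic vesicle fusion protein; rho 0.647). For App they were Tmeff2 (rho 0.731), Mag (a myelin adhesion protein), Tspan2, Ywhaq and Mobp (a myelin protein; rho 0.705). For Aplp1 they were Gpr37 (rho 0.730), Cdc42ep2, Tmeff2, Tmem125 and Mbp (myelin basic protein; rho 0.711). For Apoe they were Cst3 (cystatin C; rho 0.891), Slc1a3 (an astrocyte glutamate transporter), Aldoc (an astrocyte aldolase), Clu and Thrsp (rho 0.801). For Clu they included Cst3 (rho 0.869), Aldoc, Slc1a3 and Ntsr2 (rho 0.840). The nearest genes of the remaining pair were less close. For Aplp2 they were Ubl3 (rho 0.596), Lgmn, Slc22a23, Gsn and Osbpl1a (rho 0.507), and for Mapt Pak7 (rho 0.650), Arhgap23, Krtcap2, Ermn (a myelin cytoskeletal protein) and Trnt1 (rho 0.481). All these values hold differences between classes as well as within them.

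Related genes were described in lists of up to 14, whose counts are read against the shares of all genes past the same limits. Over the 63 related genes tested, 23.8% were called higher and 14.3% lower in oligodendrocyte-like cells, beside 18.0% and 24.7% of all genes. In neuron-like cells 11.1% were higher and 22.2% lower, beside 21.5% and 24.2%, and in astrocyte-like cells 14.3% were higher and 34.9% lower, beside 20.0% and 37.8%. Many calls were fragile: of the 15 higher calls in oligodendrocyte-like cells 12 held when any 1 library was left out, as did 5 of 7 in neuron-like and 5 of 9 in astrocyte-like cells. Of the lower calls, 4 of 9 held in oligodendrocyte-like, 13 of 14 in neuron-like and 19 of 22 in astrocyte-like cells.

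Of 13 secretase and amyloid-degrading genes tested, 4 were called higher and 1 lower in oligodendrocyte-like cells, 0 higher and 4 lower in neuron-like cells, and 1 higher and 3 lower in astrocyte-like cells. As shares these are 30.8% and 7.69%, 0% and 30.8%, and 7.69% and 23.1%, against the shares of all genes just given. The median ratio of the list was 1.71 in oligodendrocyte-like, 0.632 in neuron-like and 1.06 in astrocyte-like cells, beside 0.831, 1.03 and 0.785 over all genes. The higher calls in oligodendrocyte-like cells included Aph1a (a gamma-secretase subunit), named after its values were seen, and Adam17 (an alpha-secretase). The Adam17 ratio of 2.26 was 1.26 without the oligodendrocyte-like cell with 344 TPM. Aph1a was detected in 27 of 33 oligodendrocyte-like cells, 2 of 20 neuron-like cells and 0 of 11 astrocyte-like cells. Ncstn (nicastrin, which binds the substrate) was called lower in oligodendrocyte-like cells, at a mean of 29.04 TPM, and higher in astrocyte-like cells, at 137 TPM, but its median was 0.72 TPM in that class. Without the astrocyte-like cell with 1112 TPM both Ncstn calls ended, with the astrocyte-like ratio at 1.14 instead of 3.93 and the oligodendrocyte-like ratio at 0.676 instead of 0.375. Bace1 (beta-secretase) was past the limit in no class, with medians of 230 TPM in oligodendrocyte-like, 117 TPM in neuron-like and 2.28 TPM in astrocyte-like cells. Bace2 was detected in 2 of 64 cells.

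Of 14 partners of the amyloid precursor family, 4 were called higher and 0 lower in oligodendrocyte-like cells, 0 higher and 3 lower in neuron-like cells, and 1 higher and 6 lower in astrocyte-like cells. The median ratio of the list was 1.07 in oligodendrocyte-like, 0.803 in neuron-like and 0.854 in astrocyte-like cells. As shares, 28.6% were called higher and 0% lower in oligodendrocyte-like cells, beside 18.0% and 24.7% of all genes. In neuron-like cells the shares were 0% and 21.4%, beside 21.5% and 24.2%. In astrocyte-like cells they were 7.14% and 42.9%, beside 20.0% and 37.8%. Apbb2 (a cytoplasmic adaptor of App) had a ratio of 4.33 in oligodendrocyte-like cells, Mapk8ip1 (a scaffold that ties App to kinesin) of 4.08, and Rtn4 (Nogo, a myelin growth inhibitor that also binds the beta-secretase) of 2.15, or 1.93 without the oligodendrocyte-like cell with 833 TPM. Dab1, the adaptor of the reelin receptors, had a ratio of 3.01 in astrocyte-like cells, or 2.04 without the cell with 1040 TPM. Itm2b, an inhibitor of App cleavage, was detected in 64 of 64 cells at similar medians, 983 TPM in oligodendrocyte-like, 866 TPM in neuron-like and 1078 TPM in astrocyte-like cells.

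Among 6 other microtubule-associated protein genes tested, 2 were called higher and 1 lower in oligodendrocyte-like cells, 1 higher and 0 lower in neuron-like cells, and 0 higher and 3 lower in astrocyte-like cells. The median ratio of these 6 genes was 0.991 in oligodendrocyte-like, 1.33 in neuron-like and 0.513 in astrocyte-like cells. With 6 genes, 1 call is 16.7% of the list. As shares, 33.3% were called higher and 16.7% lower in oligodendrocyte-like cells, beside 18.0% and 24.7% of all genes. In neuron-like cells the shares were 16.7% and 0%, beside 21.5% and 24.2%. In astrocyte-like cells they were 0% and 50%, beside 20.0% and 37.8%. The median ratios over all genes were 0.831, 1.03 and 0.785 in the same order of classes. Map7 and Map1a shared the class of Mapt, with ratios of 3.78 and 3.10 in oligodendrocyte-like cells. Without the neuron-like cell with 303 TPM the Map7 ratio was 6.37. Map1b, a protein of growing axons, did not. Its TPM was 608, 1305 and 2588 (lowest, median and highest) in neuron-like cells, against medians of 384 in oligodendrocyte-like and 227 in astrocyte-like cells, and its ratio was 3.40 in neuron-like cells and 0.413 in oligodendrocyte-like cells. Of 13 tau kinase and phosphatase genes tested, 2 were called higher and 1 lower in oligodendrocyte-like cells, 2 higher and 0 lower in neuron-like cells, and 1 higher and 5 lower in astrocyte-like cells. Higher calls were no more frequent than among all genes in any class (15.4%, 15.4% and 7.69%, beside 18.0%, 21.5% and 20.0%). Lower calls were 7.69%, 0% and 38.5%, beside 24.7%, 24.2% and 37.8%, and the median ratios were 1.08, 0.874 and 0.996. Cdk5 (a tau kinase) had a ratio of 3.22 in oligodendrocyte-like cells, where it was detected in all 33, whereas Cdk5r1 (its activator p35) had a ratio of 2.68 in neuron-like cells and 0.448 in oligodendrocyte-like cells. The lower call of Cdk5r1 ended, at 0.503, without the neuron-like cell with 168 TPM. Ppp2r2a (a regulatory subunit of the tau phosphatase) had a ratio of 2.52 in oligodendrocyte-like cells. Ppp2ca, a catalytic subunit, had one of 2.02 in astrocyte-like cells, a call that ended when any 1 of 30 libraries was left out, down to 1.33 without the cell with 1501 TPM. Gsk3b, the other well-known tau kinase, was in 64 of 64 cells and past the limit in no class.

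Of 7 other apolipoprotein and lipid transport genes tested, 2 were called higher and 3 lower in oligodendrocyte-like cells, 1 higher and 3 lower in neuron-like cells, and 2 higher and 2 lower in astrocyte-like cells. The median ratio of the list was 0.550 in oligodendrocyte-like, 1.01 in neuron-like and 0.608 in astrocyte-like cells. With 7 genes, 1 call is 14.3% of the list. As shares, 28.6% were called higher and 42.9% lower in oligodendrocyte-like cells, beside 18.0% and 24.7% of all genes. In neuron-like cells the shares were 14.3% and 42.9%, beside 21.5% and 24.2%. In astrocyte-like cells they were 28.6% and 28.6%, beside 20.0% and 37.8%. The median ratios over all genes were 0.831, 1.03 and 0.785 in the same order of classes. Apod, a lipocalin of oligodendrocytes, was detected in 30 of 33 oligodendrocyte-like cells, with a median of 662 TPM, in 1 of 20 neuron-like cells and in 0 of 11 astrocyte-like cells. Lcat, which esterifies cholesterol on Apoe particles, had a ratio of 12.0 in astrocyte-like cells, with a median of 303 TPM there and of 0 TPM in both other classes. Without the astrocyte-like cell with 6293 TPM of Lcat the ratio was 5.54. Abcg1, a cholesterol exporter, had a ratio of 0.283 in astrocyte-like cells. Apool, a mitochondrial protein, had a ratio of 4.46 in oligodendrocyte-like cells, which was 2.86 without the oligodendrocyte-like cell with 559 TPM and 10.8 without the astrocyte-like cell with 187 TPM.

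Of 9 apolipoprotein receptor genes tested, 1 was called higher and 2 lower in oligodendrocyte-like cells, 2 higher and 4 lower in neuron-like cells, and 4 higher and 2 lower in astrocyte-like cells. The share called higher in astrocyte-like cells was 44.4%, beside 20.0% of all genes, and the share called lower was 22.2%, beside 37.8%. In oligodendrocyte-like cells the shares were 11.1% higher and 22.2% lower, beside 18.0% and 24.7%. In neuron-like cells they were 22.2% and 44.4%, beside 21.5% and 24.2%. With 9 genes, 1 call is 11.1% of the list. The median ratio was 1.95 in astrocyte-like, 0.627 in oligodendrocyte-like and 1.01 in neuron-like cells. Vldlr, a receptor for Apoe particles and reelin, had a ratio of 3.78 in oligodendrocyte-like cells, and of 6.16 without the neuron-like cell with 243 TPM. Sorl1, which sorts App away from cleavage, had a ratio of 2.04 in neuron-like cells, with detection in 18 of 20, but leaving out any 1 of 30 libraries ended that call, and the ratio ranged from 1.80 to 2.78. Sort1 (sortilin) had a ratio of 0.200 in astrocyte-like cells, and of 0.0899 without the cell with 75.0 TPM. Scarb1, a lipoprotein receptor, was called higher in astrocyte-like cells at 3.46, but from 3 of 11 cells with the transcript: without the cell with 553 TPM the ratio turned to 0.266. None of these counts was tested against other lists.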

How the data were processed

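Polyadenylated RNA of 64 single cells was measured. Each deposited file lists 30970 RefSeq transcripts with TPM, per the submitters' processing notes made with Bowtie2, RSEM and mm9, with no version or order given. The authors' header calls the column an expected count, but it sums to 999999 to 1000000 in every file and was treated as TPM. Here, TPM was summed per symbol, leaving out 1037 transcripts without one; 48 symbols stored as numbers were restored from RefSeq names. Reads per library were estimated from the value that low TPM times length piles up at, over 14871 transcripts of at least 1000 bases (150 bases taken off each), where 75.2 to 85.6% of low values lay within 10% of 1 read. The estimator was run on reads drawn under its own length model, and the ratio of mean TPM on values multiplied by a known factor. These runs check the code and not how well either measure suits these libraries.

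Cells were clustered (Ward linkage, 10 principal components of log2(TPM + 1), 1000 most variable genes at 1 TPM or more in at least 10% of cells, 2 to 6 clusters by silhouette; scikit-learn 1.9.0, SciPy 1.17.1, Python 3.11.15). A second programme means a marker score of another class at or above the 25th percentile of that class. With no replicate no test was run, so precision is given as ranges, and for shares as 95% intervals that cover counting error only. The 7 genes and all lists were chosen with earlier results of these data known. Named genes were the 7; per list those past the 2-fold limit with the highest mean TPM, at most 4; and the 5 nearest to each gene by rho. Aph1a, Bace1, Bace2, Itm2b, Gsk3b and Sncg lie outside this rule and were chosen after their values were seen. Exons and positions came from GENCODE M21 (GRCm38), which is not the build of the files. Alternatives were other thresholds, pseudocounts, scalings, clusterings, depth classes and leaving out libraries. Values of a few genes that these rules would name are not reported here.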

Additional observations from a re-analysis of the deposited data

How the results depend on the processing

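For each gene, the difference between its highest class and the other cells kept its direction under the 11 alternatives. Of these, 2 (no filter on low values, and the 7 genes kept in the clustering) moved 0 cells and so changed nothing. Using the most abundant transcript can only move App, Aplp2 and Mapt, and the deeper-library value of Apoe and Clu rests on 1 astrocyte-like cell. It ranged from 1.83 to 3.82 (log2) for App, 2.37 to 3.23 for Aplp1, 0.56 to 1.11 for Aplp2, 1.42 to 2.85 for Mapt, 0.62 to 3.14 for Sncb, 3.74 to 5.28 for Apoe and 2.22 to 3.43 for Clu. Clustering on 500 or 2000 genes moved 4 and 6 cells to another class. Scaling by 381 genes present in every cell moved the median of all genes by 0.10 in oligodendrocyte-like, -0.15 in neuron-like and 0.05 in astrocyte-like cells (log2). Detection shares moved for 4 genes: at 10 TPM or more Sncb was in 37.5% and App in 84.4% of cells, in deeper libraries App and Aplp1 were in 100%, and above 0 TPM Mapt was in 96.9%. Among the ratios of mean TPM in the class where each gene was highest, 3 crossed the limit of 2, under alternatives chosen after seeing the data. For Sncb in neuron-like cells it was 1.73 to 2.50 on leaving out single libraries, 2.20 in deeper libraries and 2.80 without second programmes. For Aplp2 in oligodendrocyte-like cells it was 2.03 in deeper libraries. For Mapt in oligodendrocyte-like cells it was 1.98 to 2.68 on leaving out single libraries and 1.77 in shallower libraries. In other classes, calls also changed for Clu and Apoe in oligodendrocyte-like cells and for Aplp1, Mapt, Apoe and Clu in neuron-like cells. They changed for Mapt in astrocyte-like cells as well, and these changes are given beside each ratio. In deeper libraries, with 1 astrocyte-like cell, the astrocyte-like ratio was a lower call for Aplp2, at 0.470 against 0.658 in all libraries. For Mapt it was 0.247 there.

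No paired analysis was possible because the cells form 1 group and no result comes from a test. Sncb, near 4 reads per cell, lay close to the limit of detection. Its rho with the estimated reads was 0.529 in neuron-like, -0.067 in oligodendrocyte-like and 0.092 in astrocyte-like cells. The deeper astrocyte-like libraries number 1, so depth and class cannot be told apart there.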
